A study of Mus musculus with 4 samples.

Results

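Collagen-rich spots of the mouse heart at day 14 after myocardial infarction (MI) were compared with collagen-poor spots of the same section. MI was induced in an adult ICR mouse by tying off the left anterior descending coronary artery for good, and mRNA of a heart section was captured with Visium, which counts mRNA molecules on a grid of barcoded spots. Each spot is a small area that holds several cells, often of different types. The series has 9102 spots in 4 sections, from 1 mouse each at days 1, 4, 7 and 14, and all 4 mice had the ligation, so no uninjured heart was analysed here. The day 14 section had 2741 spots. Of these, 2036 had at least 500 unique molecular identifiers (UMIs, 1 per captured mRNA molecule) and at most 1% of UMIs from hemoglobin genes. These spots were ranked by the share of their UMIs that came from Col1a1, Col1a2 and Col3a1. The 245 spots in the top 12% were called collagen-rich, and the 1018 spots in the bottom 50% were called collagen-poor. The 3 ranking genes had a median share of 2.88% in collagen-rich spots (lowest 1.08%, highest 7.68%) and of 0.0235% in collagen-poor spots. The threshold fell between a spot at 1.072% and a spot at 1.079%, so spots just outside and just inside the group were alike.

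An infarct in a mouse heart is cleared of dead cardiomyocytes by neutrophils and macrophages, and resident fibroblasts become myofibroblasts that deposit a collagen matrix in place of the lost muscle. In the weeks that follow, the matrix is crosslinked, the contractile genes of the myofibroblasts decline, and some fibroblasts take on genes of cartilage and tendon, a state called the matrifibrocyte. TIMP1, a secreted inhibitor of matrix metalloproteinases that also acts as a cytokine, and LRP1, a candidate receptor for it, were of special interest in the study.

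The groups were chosen by measured expression in this section, so all differences between them are descriptions and carry no test. There was 1 mouse and 1 section, and spots are not replicates. Intervals are exact 95% intervals for counting error only, and spots vary by more than that. Levels are counts per 1000000 UMIs (CPM) over all spots of a group, with the 3 ranking genes left out of the total. Differences are log2 ratios of these levels, collagen-rich over collagen-poor. A gene is called higher or lower when the ratio reached 2-fold.

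**Figure D1:**
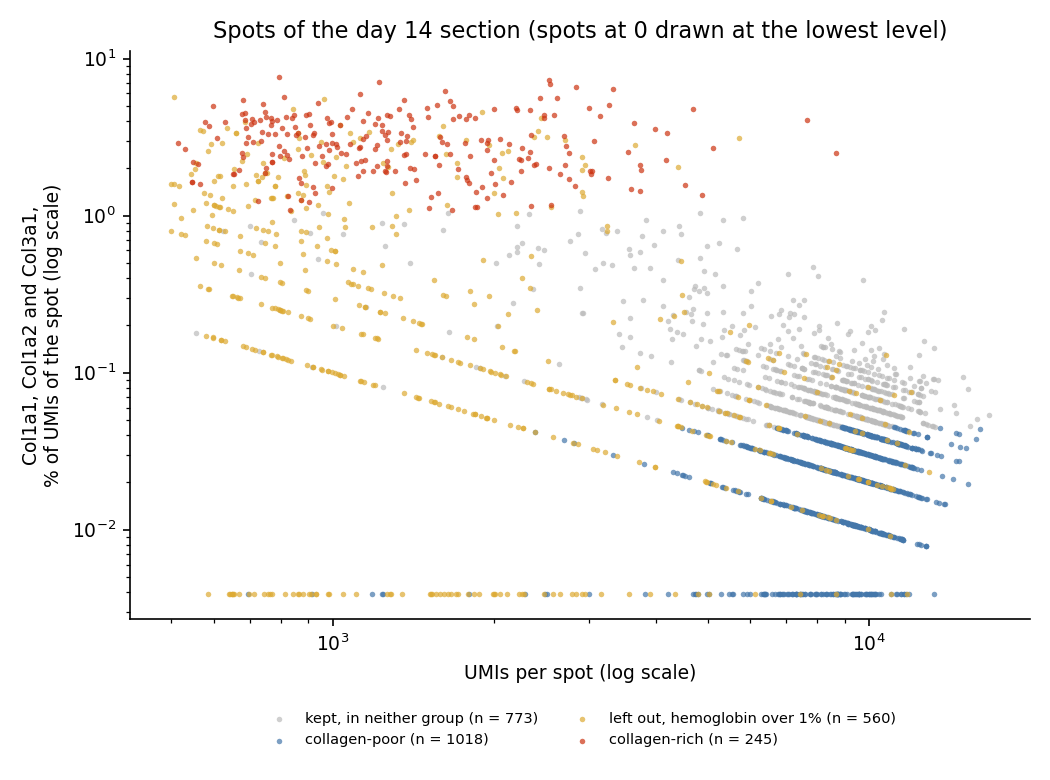
Every day 14 spot with at least 500 UMIs, by UMIs per spot (x, log scale) and the share of UMIs from Col1a1, Col1a2 and Col3a1 in % (y, log scale), coloured by group. Collagen-rich spots (red) lie to the left, with a median of 1258 UMIs, and collagen-poor spots (blue) to the right, with a median of 9230 UMIs.

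Collagen-rich spots were shallow. Their UMIs ranged from 515 to 8652 with a median of 1258, and 91 of the 245 spots had fewer than 1000, while collagen-poor spots had 695 to 16058 with a median of 9230. The median number of detected genes was 818 against 2076. The groups summed to 379759 and 9202858 UMIs without the ranking genes, so low levels are known less well in the collagen-rich spots, where 3 UMIs correspond to 7.90 CPM. Fewer cells under a spot and less RNA per cell cannot be told apart. Mitochondrially encoded genes gave 5.63% of UMIs in collagen-rich spots and 36.1% in collagen-poor spots. On the CPM scale this gap shifts other genes upward. The median log2 ratio over the 4763 tested genes (those with at least 1000 UMIs over the 4 sections) was 0.88. With mitochondrial genes left out of the total it was still 0.32, so the gap was not all of this shift. Of the tested genes, 2223 were higher by at least 2-fold, or 46.7%, and 712 were lower, or 14.9%. Relative to the median gene, 1040 were higher and 1245 lower, so the number of higher genes depends on the scale. List medians are therefore best read beside 0.88. Counts of higher and lower list members are best read beside 46.7% and 14.9%. Barcodes come from the fixed set printed on every slide, and 2356 of the day 14 barcodes were also present in another section.

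The label scar was checked against markers other than the ranking genes. Sparc, a collagen-binding protein of healing wounds, was at 0, 81.6 and 215 UMIs per 10000 UMIs of a spot (lowest, median and highest collagen-rich spot). In collagen-poor spots the same values were 0, 1.87 and 14.4, and 244 of the 245 collagen-rich spots lay above the highest of them. Myh6, the alpha myosin heavy chain of adult cardiomyocytes, was at 0, 15.5 and 175 in collagen-rich and at 55.3, 103 and 285 in collagen-poor spots, and 212 collagen-rich spots lay below the lowest collagen-poor spot. The summed share of 6 cardiomyocyte genes had a median of 0.865% in collagen-rich and 5.27% in collagen-poor spots, and 2 collagen-rich spots reached the lowest collagen-poor value of 3.97%. Sparc was thus found in nearly every collagen-rich spot, while other matrix genes exceeded the collagen-poor range in fewer, with Fn1 in 223, Postn in 172 and Lox in 83 of them. Fn1 was detected in 226 spots, Postn in 175 and Lox in 83. In shallow spots 1 UMI is already a large share, so these counts mostly tell where a gene was detected. Muscle genes were low but present in most collagen-rich spots. Spot positions were not used here, so the distance of collagen-poor spots from the infarct is unknown, and they are not called remote.

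The 15 tested genes with the largest ratio, among those with an interval wholly past 2-fold and at least 100 UMIs, were Saa3, Igkc, Igha, Ltbp2, S100a9, Sfrp2, Lox, Timp1, Ccn5, Fn1, Eln, Aebp1, Postn, C4b and Mdk. They ran from 530.1-fold higher for Saa3, an acute phase serum amyloid made in inflamed tissue, to 112-fold higher for the growth factor Mdk, also called midkine. Secreted matrix and matrix-organising products made up 9 of them, namely Ltbp2, Sfrp2, Lox, Timp1, Ccn5, Fn1, Eln, Aebp1 and Postn. The others were the immune genes Saa3, Igkc, Igha, S100a9 and the complement component C4b, together with Mdk. The gene filter counted the collagen-rich spots too. The 1041 UMIs of Igkc in these spots alone exceeded its limit of 1000, and Igha had 638 UMIs there. The other 8 immunoglobulin and plasma cell genes listed were under the filter, so the place of Igkc and Igha in this ranking depends on it. Among the matrix genes, Timp1 was at 1077 CPM (975 to 1187) in collagen-rich and at 3.69 CPM (2.56 to 5.16) in collagen-poor spots, a log2 ratio of 8.19 (7.68 to 8.74). Fn1, the fibronectin of the provisional and mature scar, was at 4463 CPM against 26.4 CPM (log2 ratio 7.40, interval 7.21 to 7.60). Lox, which crosslinks collagen and elastin, had 105 UMIs in collagen-rich spots against 8 UMIs in the far deeper collagen-poor group, a log2 ratio of 8.31 (7.28 to 9.56).

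Promoters of 4 leading genes are shown because they belong to the classes that led the ranking: an acute phase gene (Saa3), a neutrophil gene (S100a9), a protease inhibitor (Timp1) and a matricellular gene (Postn). Each runs from 250 bases before to 50 bases after a RefSeq start on GRCm38.p6, written 5′ to 3′ on the gene's strand. Capitals mark matches to TTNNGNAA on either strand, a loose form of the site bound by C/EBP factors, and to TATAAA on either strand, the letters of a TATA box.
Saa3, chr7:46715627-46715926, minus strand: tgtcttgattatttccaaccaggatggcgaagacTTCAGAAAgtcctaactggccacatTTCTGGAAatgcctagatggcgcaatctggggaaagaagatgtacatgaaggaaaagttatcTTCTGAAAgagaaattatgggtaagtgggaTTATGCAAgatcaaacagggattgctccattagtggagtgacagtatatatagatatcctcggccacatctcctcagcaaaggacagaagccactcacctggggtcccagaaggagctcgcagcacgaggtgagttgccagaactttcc
S100a9, chr3:90695672-90695971, minus strand: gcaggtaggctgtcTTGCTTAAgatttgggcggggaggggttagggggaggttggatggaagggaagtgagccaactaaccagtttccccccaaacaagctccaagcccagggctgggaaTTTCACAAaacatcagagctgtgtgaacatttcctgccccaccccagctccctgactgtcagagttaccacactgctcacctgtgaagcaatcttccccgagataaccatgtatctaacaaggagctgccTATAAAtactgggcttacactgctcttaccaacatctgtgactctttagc
Timp1, chrX:20869916-20870215, plus strand: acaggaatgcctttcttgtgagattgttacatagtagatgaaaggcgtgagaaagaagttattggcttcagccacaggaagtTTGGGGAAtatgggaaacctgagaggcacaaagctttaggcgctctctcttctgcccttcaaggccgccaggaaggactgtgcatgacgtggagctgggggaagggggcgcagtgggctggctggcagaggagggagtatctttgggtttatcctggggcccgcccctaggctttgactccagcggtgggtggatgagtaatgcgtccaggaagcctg
Postn, chr3:54360857-54361156, plus strand: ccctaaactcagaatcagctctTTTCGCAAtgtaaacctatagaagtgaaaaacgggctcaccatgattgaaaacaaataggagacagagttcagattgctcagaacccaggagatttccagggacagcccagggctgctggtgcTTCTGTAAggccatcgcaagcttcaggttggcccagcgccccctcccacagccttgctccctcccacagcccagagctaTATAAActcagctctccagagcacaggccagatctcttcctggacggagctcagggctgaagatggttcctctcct
The pattern TTNNGNAA is short and common. It occurred in 40.7% of 32851 RefSeq mouse promoters of this length, and in 6 of the 7 genes with an entry among the 15 named above. Saa3 had 4 matches, S100a9 had 2, the Postn promoter shown had 2, and Timp1 had 1. TATAAA occurred in 13.6% of all promoters and in 2 of the 7 genes. Relative to the RefSeq start, its match began at base 0 in S100a9, at the start itself, and at base -26 in the Postn promoter shown. The pattern TGANTCA (AP-1) occurred in 7.81% of all promoters and in 0 of the 7, and GGAATG (TEAD) in 14.7% and in 1, all on either strand. These matches are descriptions of the sequence, and binding was not measured.

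**Figure D2:**
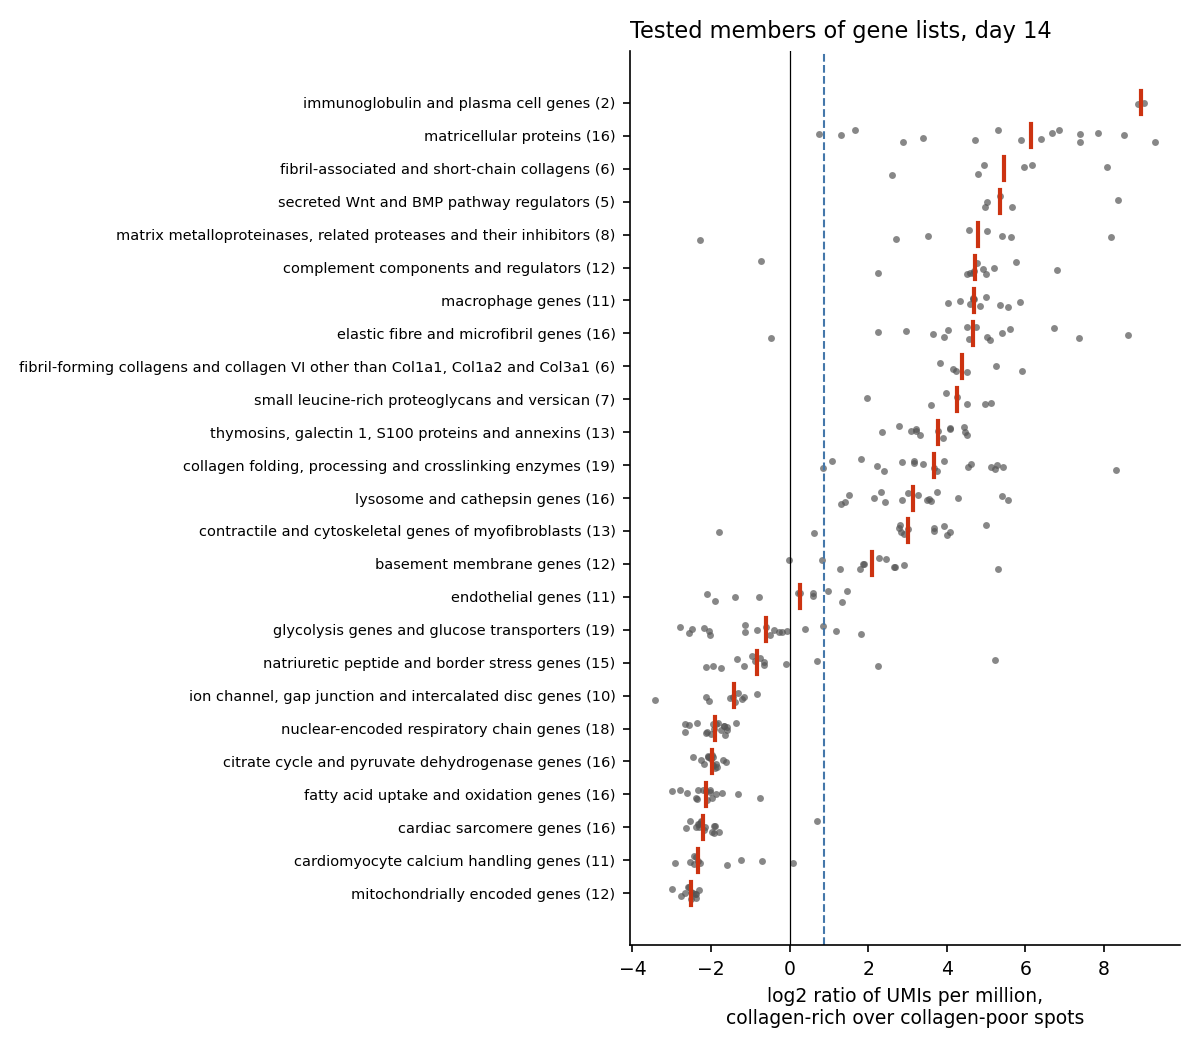
Log2 ratio of collagen-rich over collagen-poor spots (x) for the tested members of 25 gene lists (rows, number of tested members in parentheses). Each point is a gene, the red bar is the list median, the solid line is 0 and the dashed line is the median of all tested genes at 0.88. Matrix and immune lists lie to the right of the dashed line and muscle and mitochondrial lists to the left. The immunoglobulin row holds only Igkc and Igha, which passed the gene filter with many of their UMIs from the collagen-rich spots.

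Genes of the collagen matrix were higher almost throughout, while 46.7% of all tested genes were higher. Of the ranking genes, Col3a1 was at 14654 CPM, Col1a2 at 10222 CPM and Col1a1 at 6517 CPM in collagen-rich spots, values the ranking itself set. Among the other fibril-forming collagens and collagen VI, 6 of 6 tested members were higher with a median log2 ratio of 4.38. The most abundant were the collagen VI chains Col6a2 (4.25) and Col6a1 (4.17) and the collagen V chains Col5a1 (5.25) and Col5a2 (5.92), which take part in the start of collagen I fibrils. Fibril-associated and short-chain collagens were higher in 6 of 6 (median 5.46), from Col15a1 (2.61) to Col16a1 (6.16) among the 5 most abundant. Small leucine-rich proteoglycans and versican, most of which bind collagen fibrils, were higher in 7 of 7, with a median of 4.25. Decorin (Dcn) was at 4068 CPM against 333 CPM and biglycan (Bgn) at 5182 CPM against 148 CPM. Of the collagen folding, processing and crosslinking enzymes, 18 of 19 tested were higher with a median of 3.68. They included the collagen chaperone Serpinh1 (3.39), the procollagen C-proteinase enhancer Pcolce (3.76), the crosslinking enzyme Loxl1 (5.24), the lysyl hydroxylase Plod1 (1.81) and the transglutaminase Tgm2 (1.07). The prolyl hydroxylase P4ha2 was within 2-fold, at a log2 ratio of 0.85.

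Matricellular proteins, which sit in the matrix and signal to cells, had the highest median of the matrix lists, 6.15, with 15 of 16 tested members higher. Sparc was at 8737 CPM against 221 CPM (log2 ratio 5.31), Postn, the periostin of activated fibroblasts, at 1762 CPM against 15.1 CPM (6.87), and Smoc2 at a log2 ratio of 1.30. The member against the rest was Sparcl1, a relative of Sparc, at 0.74. Of the elastic fibre and microfibril genes 15 of 16 were higher, with a median of 4.66. Elastin itself (Eln) was at 1372 CPM against 8.26 CPM (log2 ratio 7.38, 7.03 to 7.74). Mgp, an inhibitor of matrix calcification, was at 4700.4 CPM against 309 CPM, the fibulins Fbln1 and Fbln2 at log2 ratios of 5.40 and 3.64, fibrillin 1 (Fbn1) at 5.03, and Ltbp4, which binds latent TGF-beta, at 2.26. Ltbp1, which also binds latent TGF-beta, was at -0.48 (-1.94 to 0.67). Basement membrane genes had a lower median of 2.09 with 10 of 12 higher, and Sparc, also counted in this list, had the largest ratio. The laminin chain Lamb2 was at 1.29, the collagen IV chains Col4a1 and Col4a2 at 1.79 and 1.90, and the heparan sulfate proteoglycan Hspg2 at 2.67. The laminin chains Lama5 and Lama2 were within 2-fold, at -0.01 and 0.83.

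Matrix proteases and their inhibitors were higher in 7 of 8 tested members, with a median log2 ratio of 4.80. Mmp2, the gelatinase of fibroblasts, was at 1738 CPM against 53.6 CPM. The inhibitors differed from each other. Timp1 was the highest in ratio (8.19), Timp2 was at 4.57 and Timp3 at 3.52, while Timp4, an inhibitor found in normal heart muscle, had 2 UMIs against 236 (log2 ratio -2.28, -5.34 to -0.41). In single spots, Timp1 was at 0, 4.29 and 80.9 UMIs per 10000 (lowest, median and highest collagen-rich spot). It was found in 133 of the 245 collagen-rich spots, and 133 spots lay above the highest collagen-poor spot at 2.24. Every spot with a Timp1 UMI was thus above that value, and at this shallow depth the count tells only where Timp1 was detected. The listed genes of candidate TIMP1 receptors, Lrp1, Cd63 and Cd74, were higher as well. The study also names App, Cd82 and Cd44, which were not in the list used here. Lrp1 was at 922 CPM against 50.3 CPM (log2 ratio 4.20, 3.99 to 4.40), the tetraspanin Cd63 at a log2 ratio of 3.25, and Cd74, which is also a chaperone of MHC class II, at 4.98.

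Lists of contractile, matrifibrocyte and resting fibroblast genes were all mostly higher. Each spot holds several cells, so the number of fibroblasts and their states cannot be told apart. Of the contractile and cytoskeletal genes of myofibroblasts 11 of 13 were higher with a median of 3.02. The intermediate filament Vim was at 1935 CPM against 114 CPM, and Acta2, the smooth muscle actin of myofibroblasts and arteries, at 411 CPM against 59.1 CPM (log2 ratio 2.80, 2.53 to 3.06). The actin crosslinker Flna was at 3.67. Tpm1, a tropomyosin that cardiomyocytes also make, was lower (-1.80), and Palld was within 2-fold (0.62). Of the genes linked to matrifibrocytes, 6 of 6 tested were higher with a median of 4.57, including Clu (2.25), Mfap5 (5.11), Col8a1 (4.81) and Sfrp2, a secreted Wnt regulator (8.37). Also tested and higher were Thbs4, at 71.1 CPM against 9.56 CPM, and Prg4, at 89.5 CPM against 4.46 CPM. The members Comp, Fmod, Cilp2 and Chad were too low over the 4 sections to be tested, and were named after their values were seen. Comp, a cartilage matrix protein, had 181 UMIs in collagen-rich against 9 UMIs in collagen-poor spots (log2 ratio 8.93, 7.97 to 10.08). Fmod, which binds collagen fibrils, had 65 UMIs against 4, Cilp2 had 23 UMIs against 0, and Chad had 10 UMIs against 0. Against a floor of 3 UMIs over the collagen-poor group, Cilp2 was at least 186-fold and Chad at least 80.8-fold higher. Resting fibroblast genes were also higher in 9 of 10, with a median of 3.95. Gsn (gelsolin), the most abundant of them, was the exception at 0.25, while Htra3 (2.26), Cd34 (2.39), Dpt (4.27) and Ecm1 (4.50) were higher. Signalling genes of the matrix were higher in 5 of 5 tested Wnt and BMP regulators (median 5.35), 6 of 7 insulin-like growth factor genes (median 3.91) and 5 of 6 TGF-beta genes (median 3.25).

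Immune genes had list medians close to those of the matrix. The counts below stand beside 46.7% of all tested genes that were higher. Macrophage genes were higher in 11 of 11 tested, with a median log2 ratio of 4.69. Lyz2, the lysozyme of myeloid cells, was at 4516 CPM against 157 CPM, and the complement chains C1qa, C1qb and C1qc, made by macrophages, were at log2 ratios of 5.00, 4.66 and 4.69. In single spots Lyz2 was at 0, 30.4 and 259 UMIs per 10000 in collagen-rich and at 0, 1.07 and 20.2 in collagen-poor spots, so most but not all collagen-rich spots (158 of 245) lay above the collagen-poor range. Apoe, a lipid carrier of macrophages and other cells, was at 8563 CPM against 346 CPM. Within the list of lipid-handling macrophages 10 of 11 were higher, and Lpl, which cardiomyocytes also make, was lower (-2.34). Resident macrophage genes were higher in 7 of 7 (median 3.82), among them the mannose receptor Mrc1 (4.45) and Gas6 (3.86). Lysosome and cathepsin genes were higher in 16 of 16 (median 3.15). MHC class II genes were higher in 3 of 3 tested, namely H2-Aa (4.76), H2-Ab1 (4.60) and Cd74 (4.98). Of the complement genes 11 of 12 were higher with a median of 4.73. C3, the central component, was at 3289 CPM against 60.4 CPM, Serping1, the C1 inhibitor, at 1359 CPM against 56.2 CPM, and Cd59a, which protects host cells from complement, was at -0.72.

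Antibody and neutrophil genes were high in part of the collagen-rich spots. The antibody genes Igkc (kappa light chain) and Igha (IgA heavy chain) were at 2741 CPM and 1680.0 CPM in collagen-rich spots against 5.22 CPM and 3.59 CPM. Jchain, which joins IgA into dimers, had 159 UMIs against 7, and Ighg2b had 96 UMIs against 3. A single spot held 62 of the Ighg2b UMIs, and 4 spots held 50% of those of Jchain. The listed genes of T, NK and B cells had 0 to 7 UMIs each over all collagen-rich spots, too few for a level. The neutrophil genes S100a9 and S100a8 had 161 and 143 UMIs against 11 and 13. Csf3r and Retnlg, more specific to neutrophils, had 11 and 8 UMIs against 3 and 3. The chemokine Ccl21a, made by lymphatic endothelium and lymphoid stroma, had 436 UMIs against 119 (log2 ratio 6.47, 6.18 to 6.78), and Ccl8, which attracts monocytes, 126 against 34 (6.49). Ccl21a has near-identical copies in the mouse genome, and its reads may belong to any of them. Jchain, Ighg2b, S100a8, Csf3r and Retnlg were too low over the 4 sections to be tested and were named after their values were seen.

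Vessel genes differed by kind. Of 11 tested endothelial genes 2 were higher, 3 lower and 6 within 2-fold, with a median of 0.28, below the median of all genes. Over all tested genes, 46.7% were higher and 14.9% lower. Capillary genes that take up fat were lower, with Cd36 at 234 CPM against 1014 CPM (log2 ratio -2.11) and Gpihbp1 at 29.0 CPM against 107 CPM (-1.89). Fabp4, a fatty acid binding protein of capillaries and fat cells, was at -0.79. Cd36 is also expressed by cardiomyocytes. Egfl7 was 2.74-fold higher, while the endothelial cadherin Cdh5 was at 0.28 (-0.27 to 0.77), a difference not detectable at this depth. Of the venous, lymphatic and endocardial genes 2 of 2 tested were higher, with a median of 4.79. They were Ccl21a and Vwf, the von Willebrand factor of endothelium, which was at 108 CPM against 12.6 CPM (log2 ratio 3.10, 2.55 to 3.62). The others were too low over the 4 sections to be tested, and those given here were named after their values were seen. Plvap, of fenestrated and venous endothelium, had 59 UMIs against 33 (log2 ratio 5.44). Flt4, a receptor of lymphatic endothelium, had 26 UMIs against 40 (3.98), and Prox1, a lymphatic transcription factor, 6 against 152 (-0.06, -1.53 to 1.09). Prox1 was the exception, as 7 of the 8 untested genes had the higher level in collagen-rich spots. Among them were Pdpn (121 CPM against 2.61 CPM), Mmrn1 (65.8 CPM against 1.96 CPM) and Lyve1 (68.5 CPM against 3.91 CPM).

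Markers of other structures of the heart were counted in the collagen-rich spots, since arteries, epicardium and fat can lie beside scar. The artery gene Myh11 had 15 UMIs in 11 of the 245 spots, at 39.5 CPM against 8.37 CPM. The mesothelial genes Msln and Upk3b had 56 UMIs in 26 spots, at 147 CPM against 1.63 CPM, and 6 spots had 3 UMIs or more. The fat cell genes Adipoq, Plin1 and Cidec had 0 UMIs, and the atrial genes Myl7 and Sln had 0. Other genes of the atrial list were higher, with Nppa at 624 CPM against 16.5 CPM and Dkk3 at 245 CPM against 2.28 CPM. Myl4 was at 5.27 CPM against 1.63 CPM, Tbx5 at 2.63 CPM against 4.35 CPM, and Bmp10 at 0 CPM in both groups. After spots high in such markers were left out, 2213 genes were higher and 688 lower.

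Cardiomyocyte genes were lower as a group, while 14.9% of all tested genes were lower. Sarcomere genes were lower in 15 of 16 tested, with a median log2 ratio of -2.21. Myl2 was at 2441 CPM against 12206 CPM (5.00-fold lower), Myh6 at 2201 CPM against 10419.8 CPM (4.73-fold lower), and Actc1, Myl3 and Tnni3 were at log2 ratios of -2.17, -2.39 and -2.53. Myh7, the beta myosin heavy chain of the fetal and stressed heart, was the exception at 0.69 (0.45 to 0.91), still below the median gene at 0.88. Only 8 collagen-rich spots held 50% of its 170 UMIs there, so this interval is too narrow. Calcium handling genes were lower in 9 of 11 (median -2.33), led in abundance by the calcium pump Atp2a2 (-2.55) and its inhibitor Pln (-2.44). Genes of energy supply were lower too. Fatty acid genes were lower in 15 of 16 (median -2.13), citrate cycle genes in 16 of 16 (-1.96), nuclear-encoded respiratory chain genes in 18 of 18 (-1.90) and mitochondrially encoded genes in 12 of 12 (-2.51). The mitochondrial gene mt-Co1 was at 12832 CPM against 101536 CPM. Glycolysis genes leaned low with members in both directions, 8 of 19 lower and 2 higher (median -0.60, against 0.88 over all tested genes). The muscle forms Eno3 (-2.55) and Pgam2 (-2.04) were lower, and Eno1 (1.81) and Pgam1 (1.19), found in most tissues, were higher. These differences depended on which spots were included. When spots of at least 1000 UMIs were ranked, the sarcomere median was -0.82, and with the top 24% of spots as the collagen-rich group it was -0.31, so the 2-fold call was lost in both.

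The 15 genes with the smallest ratio were of low abundance, and none had more than 1 UMI in collagen-rich spots. No UMI was counted for Acacb, which regulates fatty acid oxidation, Paqr9, Ppp1r3a, a glycogen-targeting phosphatase subunit, Hist1h4h, Kiz, Kyat1, Homer1 and Calr3. Against the floor of 3 UMIs over the collagen-rich group, they were at least 5.08-fold (Acacb, 369 UMIs in collagen-poor spots) to at least 2.61-fold lower (Calr3, 190 UMIs). The remaining genes, Lrrc39, Plin4, Prkaa2, Mhrt, Asb14, Efcab2 and Ift81, had 1 UMI each, and their ratios are poorly known. For Prkaa2, a catalytic subunit of the energy sensor AMPK, the log2 ratio was -4.23 with an interval of -9.53 to -1.74. Lrrc39, a protein of the sarcomere M-band, was at -4.77 (-10.08 to -2.29). Mhrt is a noncoding RNA antisense to Myh7, and how reads were assigned between the strands was not checked here.

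Genes listed for stressed cardiomyocytes leaned low in the main setting, with members in both directions. Over the alternative settings the list median ran from -1.70 to 0.64, so its sign depended on the setting. Their median log2 ratio was -0.82, against 0.88 over all tested genes, of which 46.7% were higher and 14.9% lower. Of 15 tested 2 were higher, 5 lower and 7 within 2-fold, and for Sprr1a no ratio could be given. Nppa, the atrial natriuretic peptide, was at 624 CPM against 16.5 CPM (log2 ratio 5.24, 4.94 to 5.54), and Clu, a secreted chaperone, at 1841 CPM against 386 CPM. Clu was also counted in the matrifibrocyte and complement lists, and the cells that made it were not identified. The stretch-responsive gene Ankrd1 was at 669 CPM against 707 CPM (-0.08, -0.27 to 0.10). Its log2 ratio was 1.45 when spots of at least 1000 UMIs were ranked, 1.25 with the top 24% of spots and -1.49 with the top 6%. Cryab (-1.95), Csrp3 (-2.13) and Des (-1.17) were lower.

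**Figure D3:**
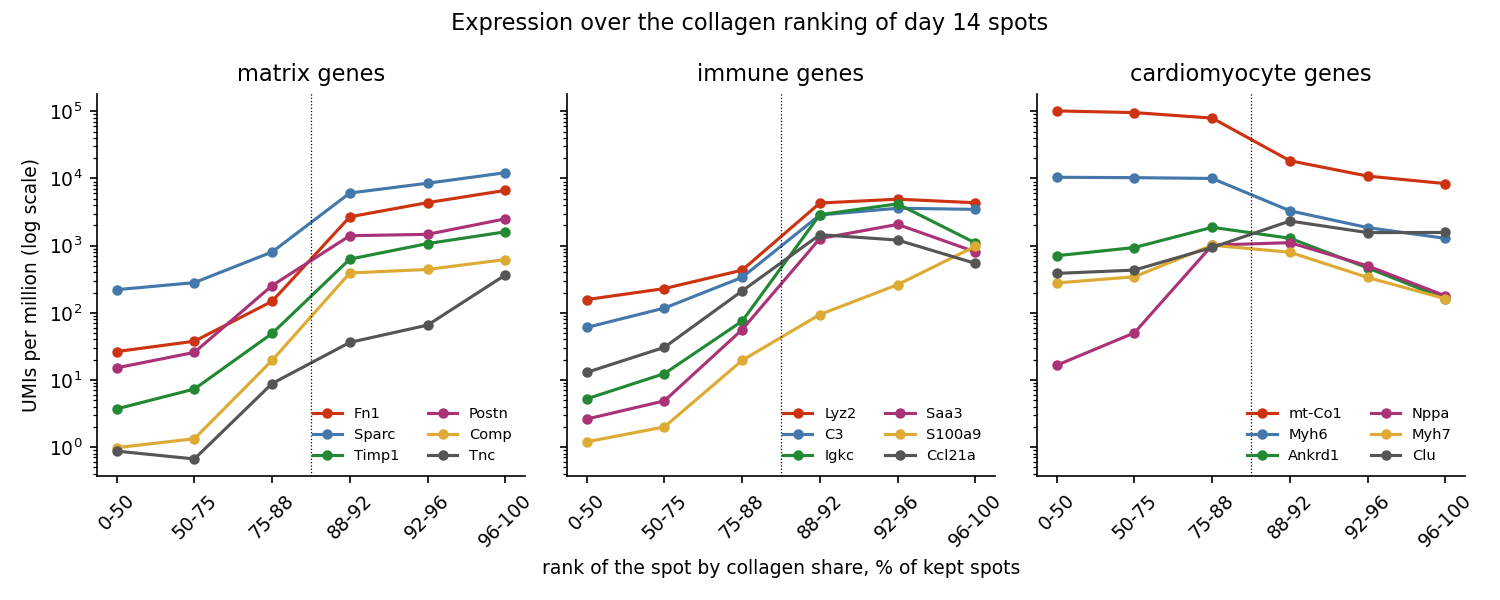
Level of 18 genes in CPM (y, log scale) over 6 bins of day 14 spots ranked by collagen share (x, % of the ranking). The dotted line marks the 88% threshold of the collagen-rich group. Fn1, Sparc, Timp1 and S100a9 are highest in the last bin, Igkc, Saa3 and Ccl21a are lower there than in the bin before it, and Nppa, Ankrd1 and Myh7 peak beside the threshold.

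The ranking was divided into 6 bins, at 50%, 75%, 88%, 92% and 96%. Macrophage genes summed to 322, 478 and 915 CPM in the 3 bins below 88% and to 8767, 9504 and 8784 CPM in the 3 bins above it. The bins on either side of 88% differed in median collagen share, 0.168% against 1.84%, so the place of the step within that span was not resolved. Median UMIs per spot were 5905 in the bin of 75% to 88% and 1430 in the next, and the part of depth in the step was not tested.

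Within the collagen-rich spots, the top 4% (81 spots, median collagen share 4.35%, median 1200 UMIs) were set against the 88% to 92% bin (81 spots, 1.84%, 1430 UMIs). Of 2133 tested genes with at least 20 UMIs in both bins together, 185 had an interval wholly above 0 and 166 wholly below, and their median log2 ratio, top bin over lower bin, was 0.08. Matrix lists were higher in the top bin. Matricellular genes were at 13074 CPM and 26446 CPM (log2 ratio 1.02, 0.93 to 1.10), with 10 of 19 members wholly above 0 and 0 wholly below. The fibril-forming collagens other than the ranking genes were at 3627 CPM and 7144 CPM (0.98, 0.82 to 1.14). Timp1 was at 629.8 and 1606 CPM (1.35, 0.98 to 1.73) and Fn1 at 2686 and 6652 CPM (1.31, 1.13 to 1.49). Tnc (tenascin C), a glycoprotein of early wounds, and Cthrc1, a gene of activated fibroblasts, were named after their values were seen. They were steeper, at log2 ratios of 3.34 (2.00 to 5.03) and 1.92 (1.12 to 2.80). Tnc had 56 UMIs over all collagen-rich spots, and 9 spots held 50% of them, so its value rests on few spots. Elastin was at 1281 and 1274 CPM (-0.01, -0.33 to 0.31), a difference not detectable at this depth.

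Immune genes divided along the same axis. Macrophage genes (log2 ratio 0.00, -0.12 to 0.12) and complement genes (0.01, -0.09 to 0.11) had intervals on both sides of 0. Monocyte and neutrophil genes were at 419.9 CPM and 2311 CPM (2.46, 2.05 to 2.90), mostly from S100a8 (3.30) and S100a9 (3.38). Over all collagen-rich spots, 4 spots held 50% of the S100a9 UMIs and 3 spots 50% of those of S100a8, so this difference rests on a handful of spots and its interval is too narrow. Immunoglobulin and plasma cell genes went the other way, at 6067 CPM and 2089.8 CPM (-1.54, -1.75 to -1.33), with 7934 CPM in the bin between. So did Ccl21a (-1.42, -1.85 to -1.01) and Saa3 (-0.66, -1.03 to -0.29). Over all collagen-rich spots, 5 spots held 50% of the Igkc UMIs and 3 spots 50% of the Igha UMIs. For Saa3, 9 spots held 50% of the UMIs, and for Ccl21a, 16 spots did. The intervals of the immunoglobulin genes, Saa3 and Ccl21a are thus also too narrow. Cardiomyocyte genes were lower in the top bin, with sarcomere genes at 23289 CPM and 8291 CPM (-1.49, -1.59 to -1.39) and mitochondrially encoded genes at 79878 and 40301 CPM. Nppa (-2.63) and Ankrd1 (-3.00) had larger differences than the sarcomere sum, but 7 spots held 50% of the Nppa UMIs and 9 spots 50% of those of Ankrd1. Nppa was at 16.5, 50.3 and 1015 CPM in the 3 bins below the threshold and at 1108, 499 and 178 CPM above it, so its level was highest in the bins beside the threshold and lower on both sides.

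**Figure D4:**
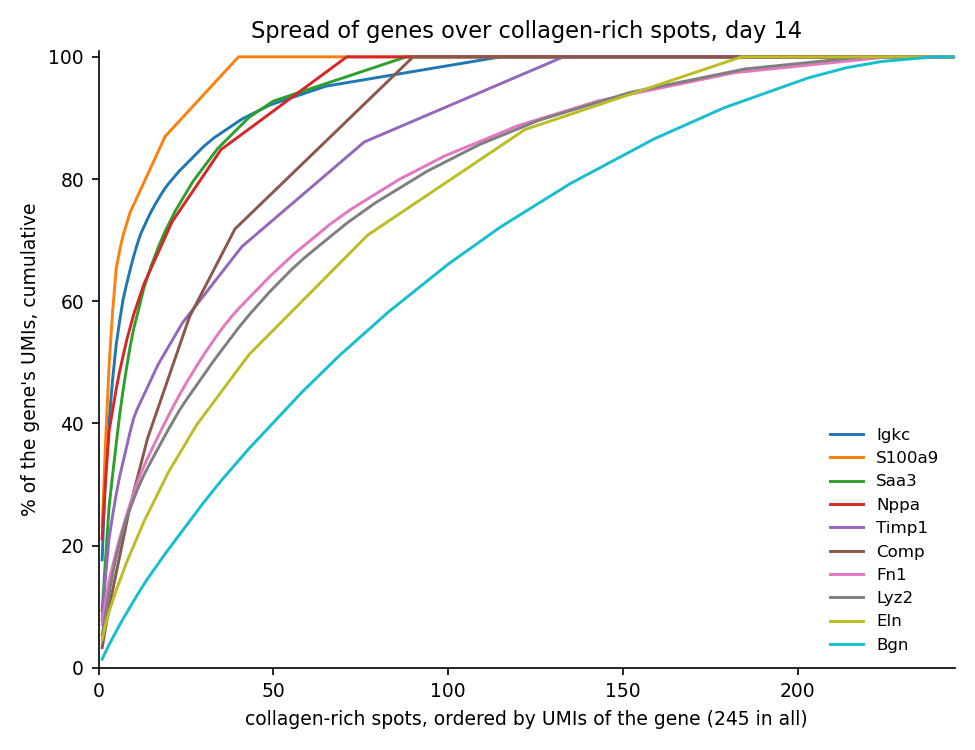
Share of a gene's UMIs over the 245 collagen-rich spots (y, cumulative %) with spots ordered by their UMIs of that gene (x). The curves of S100a9, Igkc, Saa3 and Nppa rise steeply, with 25 spots holding 90.7%, 82.4%, 77.7% and 76.4% of their UMIs, and that of Bgn rises slowly, with 23.2%.

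Genes also differed in how they were spread over single collagen-rich spots. The 25 deepest of the 245 spots held 25.8% of all UMIs. The 25 spots with most UMIs of biglycan held 23.2% of that gene's 1968 UMIs, and those of Fn1 and Lyz2 held 46.5% and 43.8%. For Igkc, with 1041 UMIs, the 25 spots held 82.4%, and 5 spots were enough for 50%. Igha was found in 72 spots and reached 188 UMIs in a single spot. S100a9 was found in 40 spots (90.7% in 25), Saa3 in 88 (77.7%) and Nppa in 71 (76.4%). Counting alone makes a gene with few UMIs uneven. Saa3 and elastin had like totals of 525 and 521 UMIs, and elastin was found in 184 spots with 36.9% in its 25. The levels of Igkc, Igha, S100a9 and Saa3 in the collagen-rich group were thus set by few spots. Without the 25 spots richest in Igkc, Igha and Jchain, the log2 ratio of Igkc was 6.74 and that of Igha 6.04, in place of 9.04 and 8.87.

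The 25 spots richest in each of these genes were compared. Of the 25 spots with most UMIs of Igkc, Igha and Jchain, 2 were among the 25 richest in S100a8 and S100a9, 3 among those richest in Saa3 and 5 among those richest in Ccl21a. The 25 Saa3 spots shared 11 with the 25 richest in C1qa, C1qb and C1qc, 9 with those richest in the mesothelial genes Msln, Upk3b, Upk1b and Wt1, and 7 each with those of S100a8 and S100a9 and of Timp1. They shared 0 with the spots richest in Comp, Fmod, Cilp2 and Chad. The overlap expected by chance was not computed, so counts as small as 0, 2 and 3 do not show separate sets. The Saa3 and Comp sets also differed in depth. The 25 Saa3 spots had a median of 3011 UMIs and the 25 spots of the Comp group 1250. The part of depth in these overlaps was not tested.

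Levels in CPM were therefore also taken in 82 collagen-rich spots of lowest depth (515 to 971 UMIs), 82 of middle depth and 81 of highest depth (1712 to 8652 UMIs), from which a few genes were named after their values were seen. The ranking gene Col3a1 was similar, at 14651, 15376 and 14316 CPM. Comp was at 1004, 854 and 152 CPM from the shallowest to the deepest spots, Fmod at 362, 285 and 64.5 CPM, Eln at 1943, 1561 and 1124 CPM and Mgp at 6881, 5704 and 3619 CPM. Saa3 went the opposite way, at 230.5, 422 and 2155 CPM, as did Clu at 724, 1099.7 and 2500.4 CPM and C3 at 2255, 2533 and 3933 CPM. Timp1 was at 444, 1208 and 1193 CPM and Myh6 at 3029, 2288 and 1929 CPM. The elastic fibre list did not go one way. Fbn1 was at 905, 1306 and 930.2 CPM, Ltbp4 at 856, 1188 and 764 CPM, and Emilin2 at 16.5, 68.7 and 249 CPM.

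**Figure D5:**
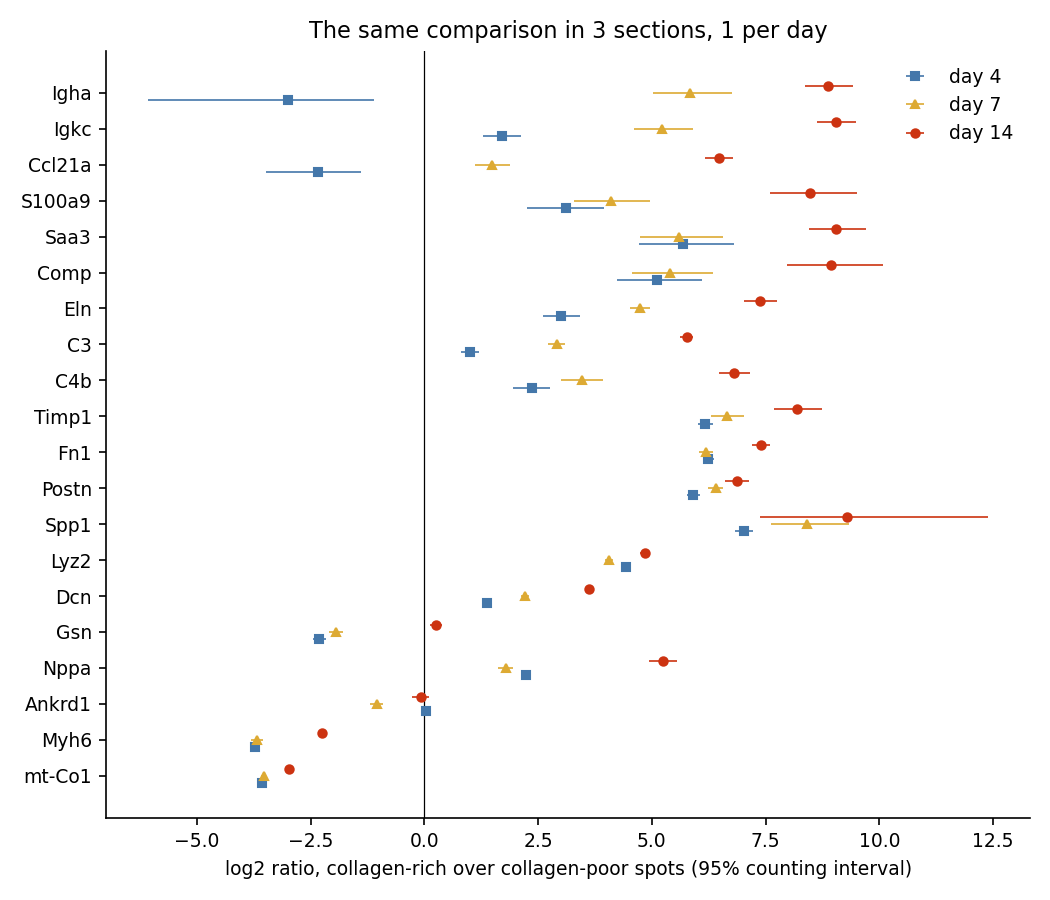
Log2 ratio of collagen-rich over collagen-poor spots (x, with exact 95% counting intervals) for 20 genes (rows) in the sections of day 4 (squares), day 7 (triangles) and day 14 (circles), each divided by the same rule. Igha and Ccl21a lie below 0 on day 4 and above 6 on day 14.

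The same rule was applied to the sections of days 4 and 7 to set the day 14 values side by side with theirs. It gave 201 collagen-rich spots with a median collagen share of 4.41% and 5786 UMIs on day 4, and 220 spots with 5.57% and 2483 UMIs on day 7. The threshold share was 3.42% on day 4, 4.09% on day 7 and 1.08% on day 14, so the day 14 group reached down to lower collagen shares. Within day 14, Timp1, Fn1 and Tnc were higher at higher collagen share. The part of the thresholds in the levels below was not tested. With 1 mouse per day, day and mouse cannot be told apart, and no difference between days was tested. Igha had 2 UMIs in the collagen-rich spots of day 4, 93 on day 7 and 638 on day 14, at 1.77, 157 and 1680.0 CPM. Saa3 was at 62.0, 123 and 1382 CPM and Comp at 54.0, 116 and 477 CPM. C3 was at 229, 731 and 3289 CPM, Eln at 95.6, 1167 and 1372 CPM, and Dcn at 1356, 2350.2 and 4068 CPM. These 6 genes had their highest level on day 14. Under these unlike thresholds, other genes of the scar had their lowest level on day 14. Spp1, the osteopontin of macrophages in wounds, was at 3520.1, 866 and 137 CPM, Timp1 at 2947, 1437 and 1077 CPM, Acta2 at 1012, 611 and 411 CPM, and Tnc at 411, 566 and 147 CPM. Timp1 had its largest log2 ratio on day 14 (8.19, against 6.17 and 6.65) although its level in collagen-rich spots was the lowest, and its level in collagen-poor spots was 41.0, 14.3 and 3.69 CPM. Lyz2 was at 6318, 4847 and 4516 CPM in collagen-rich spots. Spp1 and Tnc were named after their values were seen.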

How the data were processed

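Visium libraries of 1 section per day were analysed from deposited UMI counts per gene and spot, which the authors made with Space Ranger 1.3.0 on mm10, keeping spots under tissue, per the labels. The counts were not normalized, and 0 columns were without a sample. Spots with over 1% hemoglobin UMIs (655 on day 14) or under 500 UMIs (50 more) were left out. Counts were summed per group with Python 3.11.15, pandas 2.3.3 and scipy 1.17.1, which gave exact Poisson and Clopper-Pearson 95% intervals. Genes with at least 1000 UMIs over kept spots of the 4 sections were tested for a 2-fold ratio. The study's rank test over spots was not run, as spots of 1 section are not replicates. The intervals were checked on simulated data. Named genes were the 15 largest and 15 smallest ratios with an interval wholly past 2-fold and at least 100 UMIs, the 3 ranking genes, Timp1, Lrp1, Fn1, Myh6, Myl2, Nppa, Ankrd1 and Clu, and per list up to 5 members with most UMIs and those against its direction. The members and lists were chosen with earlier results of these data known. The file's symbols were kept, and 78 symbols were repeated. No doublet caller was run. Alternatives changed the total, the gene filter, the thresholds, the depth and hemoglobin limits and the ranking.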

Additional observations from a re-analysis of the deposited data

Results flagged for a closer look

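In hemoglobin-rich day 14 spots, which the comparison left out, 21.07% of those with at least 500 UMIs (118 of 560) had a collagen share past the collagen-rich threshold, against 0.299% on day 7, 6.09% on day 4 and 8.08% on day 1, each by that day's own threshold. Igha had opposite directions in the sections of day 14 (log2 ratio 8.872) and day 4 (-3.002), as had Jchain (9.104 and -2.164) and Ccl21a (6.472 and -2.333). These 3 differences were not tested, since each day had 1 section, and Igha rested on 2 UMIs in the collagen-rich spots of day 4.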

How the results depend on the processing

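The number of higher genes, 2223, was within 1.5 times of that under 11 of 16 alternatives. It was 1395 with mitochondrial genes left out of the total, 1040 relative to the median gene, 4146 with genes of at least 100 UMIs on day 14, 8099 with no gene filter and 989 with the top 24% of spots. The number of lower genes, 712, was within that range under 13 of 16. It was 1245 relative to the median gene, 4 with the top 24% of spots and 254 with spots of at least 1000 UMIs. The share of calls that were higher was 75.7%, 57.5% without mitochondrial genes and 45.5% relative to the median gene. The wider filters tested more genes, and the cause of the other differences was not tested. No called value changed sign, but the median of the stressed cardiomyocyte list, which was within 2-fold, did. Of the values of named genes under the alternatives, 305 were close to the reported ones and 143 moved, and of the list medians 561 and 207. Leaving out the 25 spots richest in immunoglobulin UMIs was chosen after seeing the data. No paired analysis was possible because each day had 1 section and the groups are spots of 1 section, and for the same reason no sample could be left out. Depth limits the collagen-rich group, where 3 UMIs are 7.90 CPM.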

Other observations

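The 118 hemoglobin-rich spots past the collagen threshold had a median of 869 UMIs and 5.28% hemoglobin. Matrix genes differed in how they compared with the collagen-rich spots, with Postn at 794 CPM against 1762 CPM, Lum at 1111 CPM against 2149 CPM, Eln at 1551 CPM against 1372 CPM and Fn1 at 3023 CPM against 4463 CPM. Saa3 was at 2222 CPM against 1382 CPM, S100a9 at 64.9 CPM against 424 CPM, and Igha at 714 CPM against 1680.0 CPM. These spots were shallower than the collagen-rich spots, and no difference was tested.

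Gene groups outside the matrix were also measured in the collagen-rich spots, where 46.7% of all tested genes were higher. A list of thymosins, galectin 1, S100 proteins and annexins also held Vim, Ifitm2 and Ifitm3. It was higher in 13 of 13 (median log2 ratio 3.78). Its most abundant members were Tmsb4x (3.22) and Lgals1 (3.21). Vim was also counted among the myofibroblast genes and Ifitm3 among the interferon-response genes. Interferon-response genes were higher in 5 of 5 (median 2.68), MHC class I genes in 6 of 7 (2.85) and endoplasmic reticulum folding genes in 10 of 13 (2.22). The iron storage chain Ftl1 was at 3.81, while the other chain, Fth1, was at 0.97. Mast cell genes were too low to be tested, with 15 UMIs of Tpsb2 and 10 of Cpa3 against 1 each in the collagen-poor spots.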
